A study of Zea mays with 6 samples.

Results

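The center zone of the maize shoot apex was compared with the abaxial side of 2 successive young leaf primordia, P2 and P3. The center zone is the tip of the shoot apical meristem, and the abaxial side of a leaf is its outer, later lower, face. Genes were included when their mean reached 2 RPM (read counts scaled to the uniquely aligned reads of a library) in the center zone or on the abaxial side. This rule kept 17759 of the 39656 genes in the table, of which 15788 reached 2 RPM in both tissues, 1194 in the center zone alone and 777 on the abaxial side alone. At the edge of the rule, 49 genes inside it had a higher mean of exactly 2.0 RPM and 23 genes just outside had 1.95 RPM.

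The cells came from 14-d-old wild-type seedlings of the inbred line B73 by laser microdissection, in which cells are cut from tissue sections under a microscope. There were 2 libraries of the center zone, 2 of the adaxial (inner, later upper) side of P2 and P3 and 2 of the abaxial side of the same primordia. According to the study's methods each library pooled tissue from several apices and the libraries of a group are biological replicates. The domains listed in the study's text do not include an adaxial or abaxial side, so this is assumed to hold for those libraries too. A value is then an average over plants and over every cell layer in the captured region. Uniquely aligned reads counted in genes were 23116290 and 21970034 in the center zone, 23568329 and 25898155 on the adaxial side, and 14718269 and 15453375 on the abaxial side. The abaxial libraries were thus the shallowest, and 3 reads there correspond to 0.196 and 0.186 RPM.

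The shoot apical meristem keeps a pool of undetermined cells at its tip and gives off leaf primordia at its flanks. Class I KNOX homeobox genes are active in the meristem and are shut off where a leaf starts. In the young leaf, HD-ZIP III genes define the adaxial side, KANADI genes the abaxial side, YABBY genes accompany blade outgrowth, and small RNAs restrict HD-ZIP III and ARF3-type transcripts to their own side.

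Between the center zone and the abaxial side, 1120 genes were higher in the center zone and 795 were lower, together 1915 of the 17993 genes tested (edgeR quasi-likelihood test, Benjamini-Hochberg adjusted p below 0.01). These are 6.22%, 4.42% and 10.6% of all genes tested, and all of them belong to the 17759 genes described here. The median difference over all genes tested was a log2 of 0.03. Genes called higher had a median log2 difference of 1.92, or 3.79-fold, with quartiles of 1.38 and 3.52. Genes called lower had a median of -1.82, or 3.54-fold, with quartiles of -1.35 and -2.73. The smallest differences called were 0.87 and -0.86. Of the genes called higher, 29.4% differed by more than 3 on the log2 scale, and 24.1% had a mean below 2 RPM on the abaxial side. For the genes called lower, these shares were 20.5% and, with the mean taken in the center zone, 14.1%. Genes with an average over both tissues below 10 RPM were called in 6.76% of cases and those of at least 1000 RPM in 30.2%. Of the 13 called genes in this highest class, 2 were higher and 11 were lower in the center zone.

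The 1120 genes called higher took 11.3% and 12.7% of the reads in the center zone libraries, against 3.39% and 3.19% on the adaxial side and 3.19% and 3.24% on the abaxial side. The 795 genes called lower took 4.24% and 3.37% in the center zone, against 11.3% and 11.9% adaxially and 12% and 11.5% abaxially. Without regard to a test, both center zone libraries exceeded both abaxial ones in 7569 genes, 42.1% of those tested, and both abaxial libraries exceeded both center zone ones in 5581 genes, 31%. The number of calls depended on single libraries. It was 218 without abaxial library 1, 310 without abaxial library 2, 1185 without adaxial library 1, 1233 without adaxial library 2 and 3454 without center zone library 1. Of the 1915 genes, 208 and 294 were still called without abaxial library 1 and 2, and 1775 without center zone library 1. On a scale of log2(RPM + 1), replicates agreed within 2-fold for 90.6% of genes in the center zone and 98.1% on the abaxial side. In captured tissue, fewer cells that express a gene and less RNA per cell cannot be told apart.

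**Figure D1:**
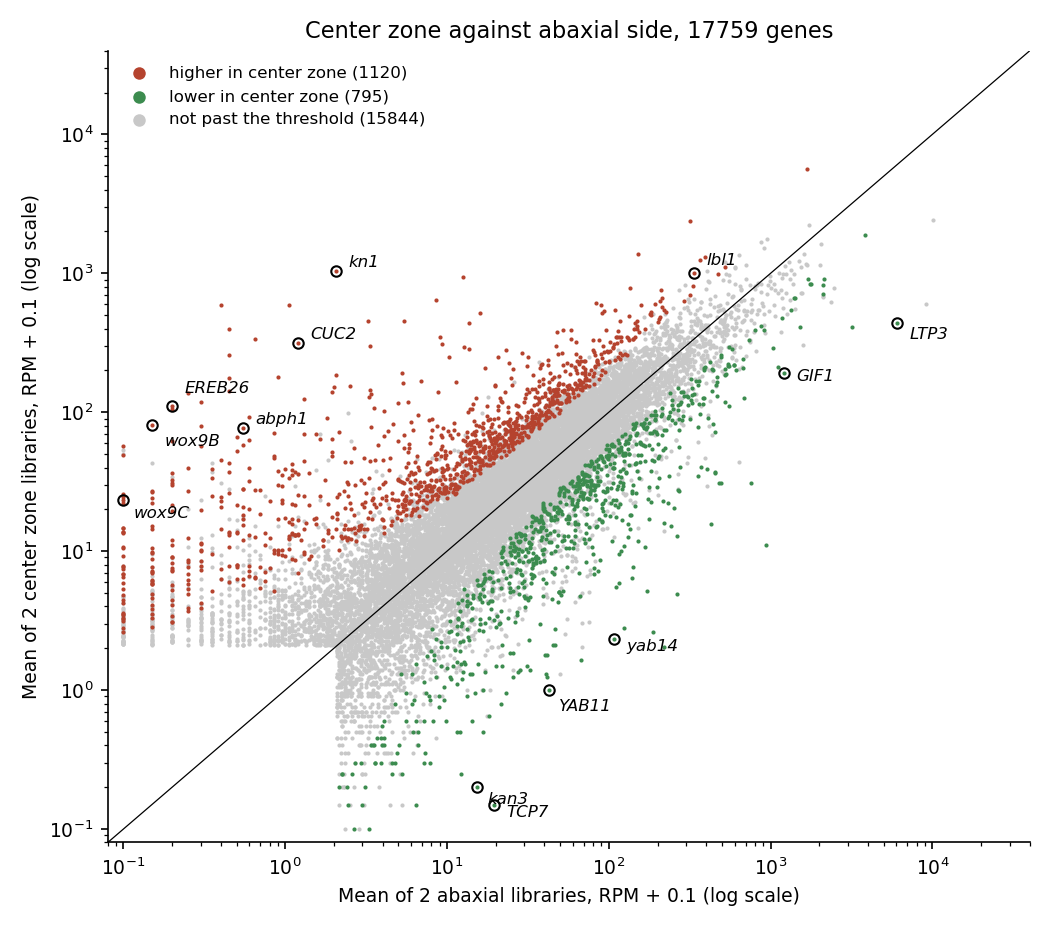
Mean level in the center zone (vertical axis) against mean level on the abaxial side (horizontal axis), in RPM plus 0.1 on log axes, for the 17759 genes. Colored points are the 1120 genes called higher and the 795 called lower in the center zone, and some of the genes described in the text are circled and labelled.

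All 7 measured class I KNOX genes were higher in the center zone, with a median log2 difference of 6.14 and a range of 2.91 to 8.97. The sum over all 8 IDs of the list was 1391.5 and 1177.6 RPM in the center zone, against 17.4 and 10.6 RPM on the abaxial side. The founding member kn1, which keeps meristem cells undetermined (chromosome 1, 271340805 to 271348525, B73 RefGen_V3), had 1109.9 and 971.1 RPM in the center zone, against 2.7 and 1.2 RPM abaxially. Its log2 difference was 8.97 ± 0.89 (SE, edgeR adjusted p = 0.00336). The ligule gene lg3 showed the smallest difference of the list, with 86.5 and 66.7 RPM in the center zone against 11.2 and 7.6 RPM on the abaxial side (log2 2.91 ± 0.35, edgeR adjusted p = 0.00222). For knox8, a homeobox gene of the same class, 492 reads over both center zone libraries stood against 1 read over both abaxial libraries, a depth-corrected ratio of 329 with a 95% counting interval of 58.8 to 13016. In every member both center zone libraries exceeded both abaxial ones, as they did in 42.1% of all genes tested. In each omission of a center zone or adaxial library, 6 of the 7 calls remained, and in each omission of an abaxial library 2 remained. kn1 lost its call without each of the center zone and abaxial libraries, and knox4, lg3 and lg4 without either abaxial library, while knox8 and lg4b kept theirs throughout. The class II KNOX genes, which act in differentiated tissue, did not pass, with log2 differences of 0.80 ± 0.19 for knox6 (edgeR adjusted p = 0.021) and 0.19 ± 0.18 for knox7 (edgeR adjusted p = 0.464).

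Some other regulators of the meristem and of organ boundaries passed the test. CUC2, a NAC gene named after the Arabidopsis boundary gene CUP-SHAPED COTYLEDON2 (chromosome 6, 16291162 to 16293492), had 353.9 and 277.1 RPM in the center zone, against 1.4 and 0.8 RPM on the abaxial side (log2 8.02 ± 0.48, edgeR adjusted p = 0.000305). Its relatives moved less. All 12 NAC genes had a positive difference, with a median of 0.88, but only CUC2 and NAC120 passed the test. CUC2 was called in every omission of a library, and NAC120 lost its call without center zone library 2 or either abaxial library. The WOX homeobox genes wox9B and wox9C, related to the Arabidopsis regulator of early growth WOX9, were almost absent from the abaxial libraries. wox9B had 58.1 and 104.1 RPM in the center zone, and its 3786 reads there stood against 1 abaxial read, a ratio of 2531 with a 95% counting interval of 454 to 99983. wox9C had 28.3 and 18.4 RPM in the center zone and no abaxial read, which makes it at least 246-fold higher against a floor of 3 reads over the abaxial group. Both lost their call without either abaxial library, and wox9C also without center zone library 2. The stem cell gene wus1, with 1.0 and 0.2 RPM in the center zone, stayed below the 2 RPM rule and was not tested. It had no abaxial read and was at least 6.46-fold higher against the same floor. The narrow sheath gene ns1, a WOX gene that founds the leaf margin, pointed the other way with 0.1 and 0.0 RPM in the center zone against 3.0 and 1.1 RPM abaxially, and did not pass (edgeR adjusted p = 0.0192).

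Of 5 genes that set the size of the meristem, 2 were higher in the center zone. The receptor gene fea3, whose product limits stem cell number, had 114.7 and 97.7 RPM in the center zone, against 14.8 and 13.4 RPM abaxially (log2 2.80 ± 0.20, edgeR adjusted p = 0.000382). FEA4, a bZIP factor of the same control, had 76.2 and 67.3 RPM in the center zone, against 17.1 and 11.9 RPM (log2 2.19 ± 0.38, edgeR adjusted p = 0.00827). Its call was lost without center zone library 2 or either abaxial library, whereas fea3 kept its call throughout. The receptor genes fea2 (log2 0.94 ± 0.20, edgeR adjusted p = 0.0144) and TD1 (log2 0.68 ± 0.21, edgeR adjusted p = 0.0493) and the G protein gene ct2 (log2 -0.11 ± 0.22) did not pass.

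Cytokinin promotes cell proliferation in the meristem. Of 20 measured cytokinin genes, 4 were higher in the center zone, with a list median of 0.80. The response regulator abph1, which acts in leaf placement (chromosome 2, 27478703 to 27483682), had 89.2 and 63.9 RPM in the center zone, against 0.5 and 0.4 RPM abaxially (log2 7.29 ± 0.38, edgeR adjusted p = 0.000161). The response regulators RR4 and crr2 differed by 2.65 ± 0.28 and 3.39 ± 0.36 on the log2 scale. IPT1, of the family that makes cytokinin, had 29.6 and 44.3 RPM in the center zone, against 13.4 and 11.2 RPM (log2 1.48 ± 0.27, edgeR adjusted p = 0.00852). The calls that remained were 2 without abaxial library 1 and 1 without abaxial library 2, and abph1 was called in every omission. IPT1 lost its call in 5 of the 6 omissions and held it without center zone library 1.

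Auxin genes split. Of 17 auxin response factors (ARF), which switch auxin target genes, 3 were higher and 2 lower in the center zone, and the list median of -0.03 did not stand apart from that of all genes. ARF5 had 55.0 and 83.1 RPM in the center zone, against 1.0 and 1.4 RPM abaxially (log2 5.73 ± 0.36, edgeR adjusted p = 0.000258). ARF10 had 156.2 and 97.8 RPM in the center zone, against 408.8 and 363.0 RPM (log2 -1.72 ± 0.24, edgeR adjusted p = 0.00351). Scaled by library size alone the list median was 0.09, and without abaxial library 1 it was 0.10. Only ARF5 was called in every omission of a library. The 2 called auxin efflux carriers also pointed in opposite directions. PIN1a had 118.9 and 83.0 RPM in the center zone, against 9.3 and 17.5 RPM (log2 2.81 ± 0.44), and PIN1d 61.5 and 46.6 RPM, against 189.4 and 178.7 RPM (log2 -1.88 ± 0.22). Their edgeR adjusted p values were 0.00746 and 0.00192, and both calls were lost without either abaxial library.

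The largest differences outside these lists included EREB26, an AP2-type transcription factor gene (chromosome 1, 51016688 to 51022814). It had 135.4 and 86.7 RPM in the center zone and 0.1 RPM in each abaxial library, or 5249 reads against 3, a ratio of 1170 with a 95% counting interval of 400 to 5673. It was called in every omission of a library, as were MYBR90, the phosphatase gene PP2C15 and the potassium transporter gene HAK9. MYBR90 had 43.2 and 81.1 RPM in the center zone and 3 reads over both abaxial libraries, a ratio of 646 with a 95% counting interval of 221 to 3135. HAK9, with 12.2 and 8.8 RPM and no abaxial read, was at least 110-fold higher. The 2 largest differences of genes without a symbol also had no abaxial read. GRMZM2G165836 had 55.7 and 58.4 RPM in the center zone and was at least 597-fold higher, and GRMZM2G052696 had 56.2 and 41.4 RPM and was at least 513-fold higher. Less deeply covered examples were PP2C16 (461 reads against 1, a ratio of 308 with a 95% counting interval of 55 to 12197), gst19 (at least 71.3-fold higher) and the gene GRMZM2G054663, which shares the symbol ktn2 of a microtubule-severing katanin with other IDs (at least 45.5-fold higher). gst19 and GRMZM2G054663 lost their calls without any one leaf library, and PP2C16 without either abaxial library.

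Other called regulators higher in the center zone were the AP2-type gene EREB85 (30.5 and 56.6 RPM, against 2.8 and 2.1 RPM), the helix-loop-helix gene bHLH27 (47.8 and 68.6 RPM, against 2.8 and 4.5 RPM) and the MADS-box gene MADS36 (53.5 and 35.3 RPM, against 3.3 and 3.2 RPM). DLF1, a bZIP gene that promotes flowering, had 422.2 and 377.4 RPM in the center zone, against 135.9 and 148.2 RPM. The lignin gene BM1, the cinnamyl alcohol dehydrogenase behind the brown midrib phenotype and one of the marker genes for vasculature used here, had 55.4 and 30.7 RPM in the center zone, against 0.3 and 0.4 RPM (log2 6.80 ± 0.69, edgeR adjusted p = 0.0019). Of the 7 measured lignin genes, BM1 and cad1 were higher and the other 5 had a negative difference that did not pass, with a list median of -1.01. Another such marker list, the Dof genes, summed to 59.3 and 34.4 RPM in the center zone and 26.5 and 26.7 RPM abaxially. Their part in the BM1 difference was not tested. All calls named in this paragraph, cad1 included, were lost without abaxial library 1, and only that of bHLH27 remained without abaxial library 2.

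YABBY genes mark leaf primordia. Of 9 members, 5 were lower in the center zone, 1 had a positive difference of 0.21 that did not pass, and the list median was -5.16. Their sum was 91.4 and 23.6 RPM in the center zone, against 570.5 and 582.0 RPM abaxially. yab14 (chromosome 10, 133109200 to 133111834) had 1.9 and 2.6 RPM in the center zone, against 111.8 and 104.1 RPM abaxially (log2 -5.69 ± 0.26, edgeR adjusted p = 0.000147). YAB11 had 1.0 and 0.8 RPM against 48.1 and 36.9 RPM, and yab10 had 1.3 and 1.1 RPM against 40.2 and 41.0 RPM. In every omission of a library these 3 were called. DL1, related to the rice midrib gene DROOPING LEAF, had 0.1 RPM in each center zone library against 3.1 and 2.9 RPM, and lost its call without either abaxial library. yab9, with 0.9 and 1.9 RPM against 20.2 and 19.5 RPM, lost it without abaxial library 1. YAB5 and yabby15 missed the threshold, at edgeR adjusted p of 0.0118 and 0.0448. yabby15 stood at 78.8 RPM in center zone library 1 and 16.3 RPM in library 2, and so held most of the YABBY signal in the first. Center zone library 1 also had more of the photosynthesis list (38.1 RPM, against 1.7 RPM in center zone library 2 and 4.3 and 2.8 RPM abaxially). On the adaxial side the list also stood higher in library 1, at 20.2 RPM against 2.9 RPM in library 2. The part of other cells in these values was not tested. Without center zone library 1, 7 YABBY genes were called lower.

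KANADI genes mark the abaxial side in maize and Arabidopsis. The 3 members summed to 5.5 and 1.4 RPM in the center zone, against 83.7 and 80.0 RPM on the abaxial side, and their median log2 difference was -4.55. Only kan3 passed, with 0.2 and 0.0 RPM in the center zone against 19.4 and 11.2 RPM (log2 -6.97 ± 1.00, edgeR adjusted p = 0.00455), and it lost its call without any one leaf library. milkweed pod1 (mwp1), the KANADI gene known from maize leaf mutants, had 4.4 and 0.5 RPM in the center zone against 51.4 and 55.3 RPM (log2 -4.55 ± 0.92, edgeR adjusted p = 0.0222). kan1 had 0.9 RPM in both center zone libraries against 12.9 and 13.5 RPM (log2 -4.02 ± 0.78, edgeR adjusted p = 0.0111). In all 3 genes both abaxial libraries exceeded both center zone ones, as they did in 31% of all genes tested. Another gene of the related G2-like family, GLK47, had 1.9 and 1.2 RPM in the center zone against 74.5 and 60.5 RPM (log2 -5.54 ± 0.48, edgeR adjusted p = 0.000991) and was called in every omission. It was the only call among 7 measured G2-like genes. Of these, 5 had a positive difference and 2 a negative one, with a median of 0.78.

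The genes of adaxial identity did not follow 1 pattern against the abaxial side. Among 4 HD-ZIP III genes, rld2 had 323.7 and 461.5 RPM in the center zone, against 102.6 and 88.6 RPM abaxially (log2 1.93 ± 0.27, edgeR adjusted p = 0.00355), and phb3 had 51.1 and 58.2 RPM, against 7.7 and 10.4 RPM (log2 2.49 ± 0.24, edgeR adjusted p = 0.00113). Neither call held without abaxial library 1, and only that of phb3 held without abaxial library 2. rld1 had 349.2 and 444.1 RPM in the center zone, against 384.0 and 374.9 RPM (log2 -0.04 ± 0.20), and phb2 593.2 and 576.6 RPM, against 477.9 and 473.2 RPM (log2 0.19 ± 0.21). For both, the difference was no larger than its SE. Of these 4 genes, only phb3 was also called higher against the adaxial side, which held 7.0 and 7.4 RPM of it (edgeR adjusted p = 0.000806). rld2 had 276.5 and 177.4 RPM adaxially, and that difference did not pass (edgeR adjusted p = 0.0979). In the ta-siRNA pathway, which trims abaxial ARF3-type transcripts, lbl1 was higher in the center zone with 957.4 and 1051.5 RPM, against 342.8 and 326.9 RPM (log2 1.48 ± 0.21, edgeR adjusted p = 0.00346). The adaxial side held 352.3 and 245.7 RPM of lbl1, and the center zone was higher there too (edgeR adjusted p = 0.00259). The small-RNA processing genes dcl1 and dcl4 were lower than on the abaxial side, by log2 differences of -1.66 ± 0.20 and -0.96 ± 0.18. Against the adaxial side neither passed (edgeR adjusted p of 0.0201 and 0.0227). No call of this pathway against the abaxial side held without one or the other abaxial library, and that of dcl4 was lost in all 6 omissions. rs2, the MYB gene that keeps KNOX genes silent in leaves, had 26.9 and 16.3 RPM in the center zone against 94.2 and 88.3 RPM (log2 -2.19 ± 0.37, edgeR adjusted p = 0.00823). It lost its call without center zone library 2 or either abaxial library.

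**Figure D2:**
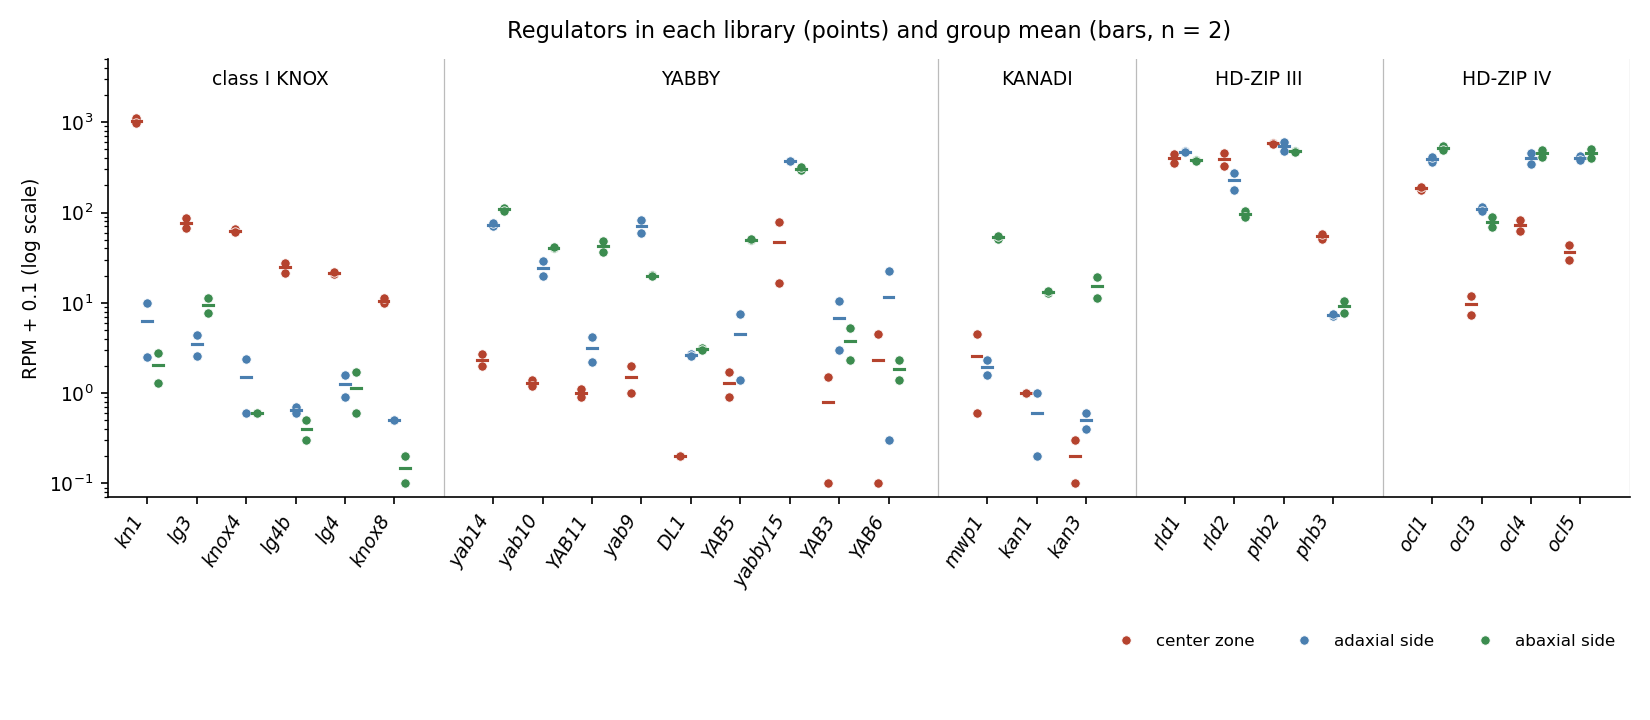
Level in each library, in RPM on a log axis with 0.1 added, of 6 class I KNOX genes and of the YABBY, KANADI, HD-ZIP III and HD-ZIP IV genes. Each point is 1 library, with the center zone, adaxial and abaxial libraries in separate colors, and bars are group means of 2 libraries. The KNOX genes have their center zone points far above both leaf sides, and the KANADI genes have only their abaxial points high.

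All 4 HD-ZIP IV genes, the OUTER CELL LAYER genes of the epidermis, were lower, with a median of -2.96. Their sum was 314.4 and 291.8 RPM in the center zone, against 1634.0 and 1377.2 RPM. ocl5 had 43.6 and 29.8 RPM in the center zone, against 502.2 and 406.4 RPM (log2 -3.75 ± 0.25, edgeR adjusted p = 0.000303). ocl3, ocl4 and ocl5 were called in every omission, and ocl1 lost its call without either abaxial library. The lipid transfer gene LTP3, of a family that loads the cuticle, had 589.2 and 293.7 RPM in the center zone, against 6208.3 and 5842.1 RPM (log2 -3.89 ± 0.37, edgeR adjusted p = 0.0011). Not all genes of the outer layer behaved so, since wox9B and wox9C, used here as epidermal markers too, were higher in the center zone.

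Growth-regulating factors and their coactivators (GRF and GIF) drive cell proliferation in the leaf blade. Of 17 members, 8 were lower in the center zone, 5 had a positive difference that did not pass, and the median was -1.24. The coactivator gene GIF1 (chromosome 1, 273326551 to 273330206) had 225.0 and 158.8 RPM in the center zone, against 1428.4 and 988.3 RPM (log2 -2.77 ± 0.27, edgeR adjusted p = 0.00111). GRF7 had 6.8 and 2.7 RPM against 64.4 and 36.2 RPM, and GRF3 (GRMZM2G105335) 18.0 and 17.1 RPM against 134.3 and 85.8 RPM. GIF1 and GRF3 were the only 2 calls of this list that held without each abaxial library.

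Among the largest decreases with a symbol was TCP7, of a family that controls when leaf cells stop dividing. It had 0.1 and 0.0 RPM in the center zone against 27.9 and 10.9 RPM, or 3 reads against 604, a ratio of 301 with a 95% counting interval of 103 to 1465. Of 7 measured TCP genes, 2 were called lower and 1 higher, with a median of -1.06. The LEAFY homolog zfl1 had 2.0 and 1.5 RPM in the center zone against 24.3 and 24.7 RPM (log2 -3.90 ± 0.36, edgeR adjusted p = 0.000914). bHLH173 had 15.2 and 10.1 RPM against 251.4 and 276.0 RPM, and bHLH165 had 2.7 and 1.7 RPM against 32.7 and 31.5 RPM. These 4 genes, and GRMZM2G123972 with 2.9 and 1.0 RPM against 260.6 and 177.0 RPM, were called in every omission. bHLH23, bHLH105, MYBR113, the SBP gene sbp21 and the lipoxygenase gene lox3 were also among the 12 largest with a symbol, and each lost its call in at least 1 omission. The log2 differences of the first 4 were -4.57, -4.68, -4.55 and -5.47. For lox3, 3 reads stood against 198, a ratio of 98.7 with a 95% counting interval of 33.3 to 483, and for GRMZM2G022679, which has no symbol, 1 read against 100, a ratio of 150 with a 95% counting interval of 26.2 to 5967. SCR, the SCARECROW gene of the GRAS family, had 130.0 and 129.5 RPM in the center zone, against 498.3 and 433.1 RPM (log2 -1.95 ± 0.18), and was called in every omission but that of abaxial library 1.

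In the lists of cell division and protein synthesis, a minority of genes passed the test, beside 10.6% of all genes tested. All 11 cyclin and CDK genes had a negative difference, with a median of -0.78, and 3 passed, namely cycD1, cyc1 and cyclin8. In the replication list, 5 of 14 were lower and 1 was higher, with a median of -1.09. The sliding clamp gene pcna1 had 94.6 and 100.4 RPM in the center zone, against 211.6 and 214.2 RPM (log2 -1.23 ± 0.18, edgeR adjusted p = 0.0043), and the ribonucleotide reductase genes RNRS1 and RNRS3 differed by -1.94 ± 0.29 and -1.81 ± 0.28. In this list 3 genes had a positive difference, of which only the flap nuclease gene FEN1 passed. FEN1 had 305.3 and 370.8 RPM in the center zone against 143.5 and 138.8 RPM (log2 1.15 ± 0.19, edgeR adjusted p = 0.0063). All 11 histone genes had a negative difference as well, with a median of -1.22, of which only H4C7 passed. Of 35 ribosomal protein genes, 5 were lower and 1 was higher, 13 had a positive difference, and the median was -0.42. The sum over all 37 IDs of the ribosomal list was 9877.3 and 9837.0 RPM in the center zone, against 13215.6 and 12904.1 RPM. No call of the cyclin, replication, histone and ribosomal lists held without one or the other abaxial library. Without center zone library 2, 2 of the 6 ribosomal and 4 of the 6 replication calls remained, and 1 of the 3 cyclin calls remained in each omission of a center zone or adaxial library. Beside these values stand the histone sums of 4510.4 RPM in center zone library 1 and 2643.6 RPM in library 2, a spread between replicates larger than in the abaxial libraries (6678.1 and 6172.7 RPM).

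The remaining transcription factor lists had calls in both directions or few calls. Over all genes tested, 6.22% were called higher and 4.42% lower, and several list counts below lie near these shares. Among MYB genes, 5 of 32 were higher and 5 lower in the center zone, among AP2-type genes 2 of 21 were higher and 2 lower, and among bHLH genes 1 of 27 was higher and 4 lower. In the bZIP list 3 of 23 were higher, and in the SBP list, whose members time the change of growth phase, 2 of 19 were lower. These included tga1, the SBP gene of the teosinte fruit case, with 0.4 and 0.2 RPM in the center zone against 2.9 and 3.9 RPM. Of 5 OFP genes, which act in growth patterning, OFP16 and OFP32 were lower, with 7.3 and 4.3 RPM against 41.9 and 39.5 RPM and with 1.0 and 0.5 RPM against 7.5 and 8.0 RPM. The list went both ways, since 1 OFP gene had a positive fitted log2 difference of 8.70 that did not pass. By DESeq2, 1 OFP gene was called higher and 3 lower. The MADS-box gene zmm16, of the class of floral organ identity genes, had 8.9 and 4.5 RPM in the center zone against 45.4 and 46.3 RPM (log2 -2.89 ± 0.31, edgeR adjusted p = 0.00144). Of 16 measured MADS-box genes, 1 was called higher and 1 lower. A positive difference was found for 12 and a negative one for 4, with a median of 1.16. The tubulin list had 1 of 12 higher and 1 lower, and the heat shock list 1 of 16 higher and 2 lower. The beta-tubulin gene TUB2 had 74.2 and 80.7 RPM in the center zone, against 19.0 and 14.4 RPM, and a gene with the symbol Hsp70 had 37.4 and 34.0 RPM, against 0.6 and 1.6 RPM (log2 4.94 ± 0.44, edgeR adjusted p = 0.000834). The lower members were TUB8, with a log2 difference of -1.40 ± 0.24, the heat shock factor gene HSF2 with -1.95 ± 0.32 and hsp70-4 with -1.35 ± 0.25. OFP16 and Hsp70 were called in every omission of a library. The others named in this paragraph lost their call without abaxial library 1, and tga1, OFP32, TUB2, TUB8, HSF2 and hsp70-4 also without abaxial library 2. Without center zone library 2, tga1, TUB8, HSF2 and hsp70-4 lost theirs too.

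**Figure D3:**
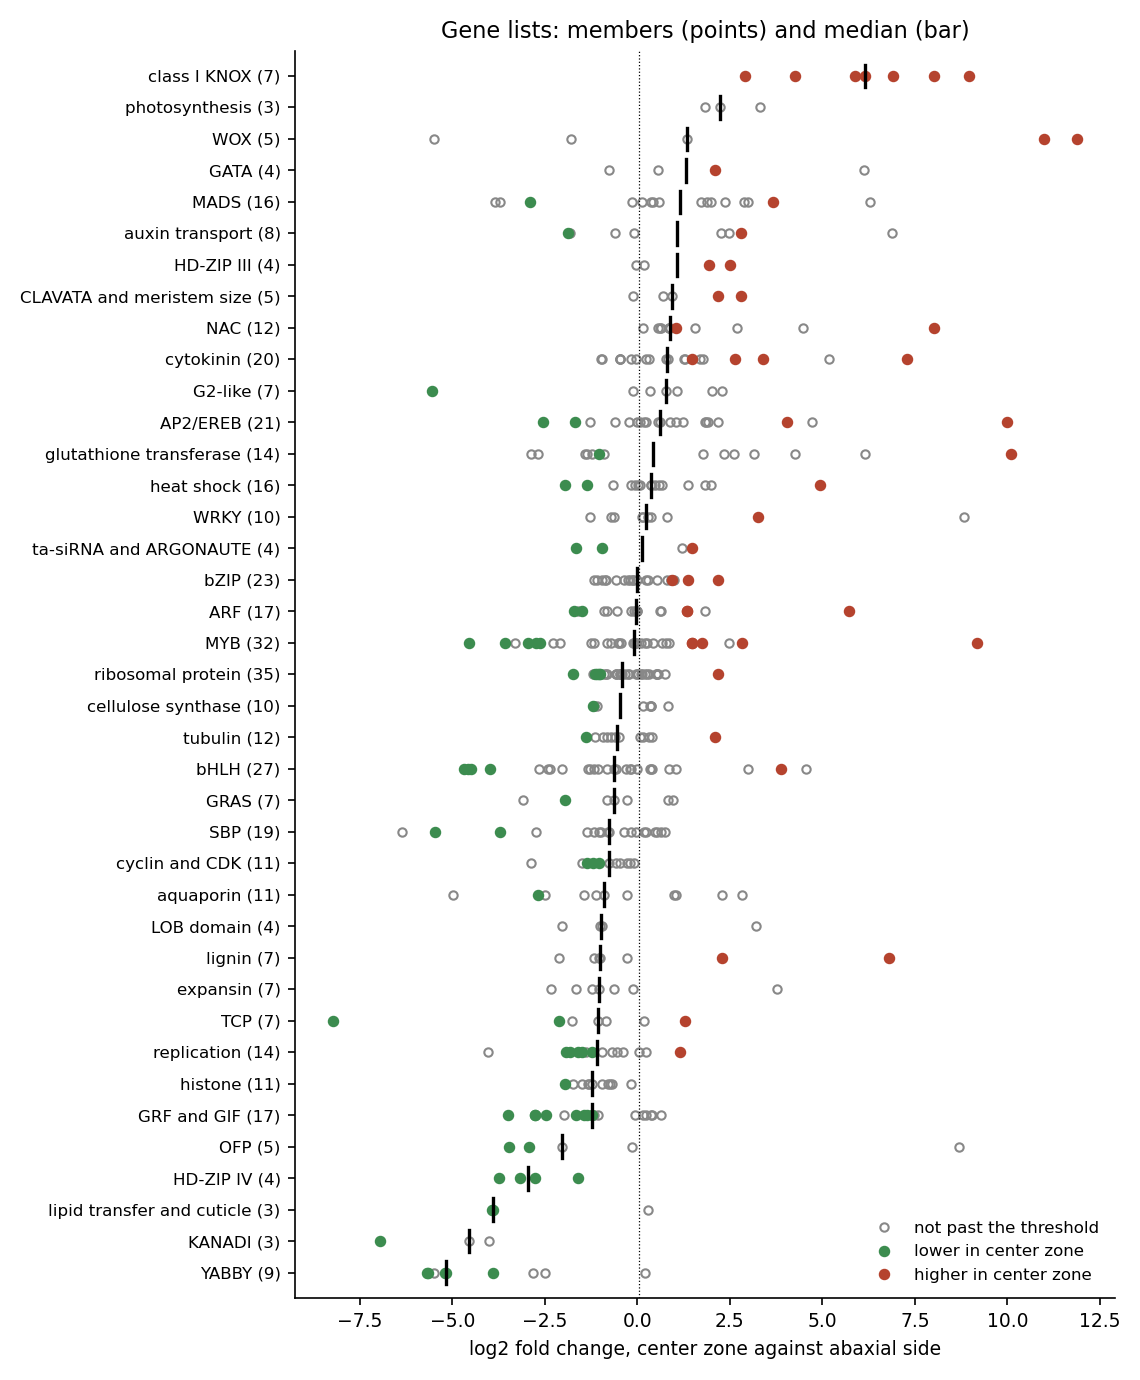
Log2 difference of the center zone against the abaxial side for each gene (points) of every list with at least 3 measured members, with the list median as a bar and the median of all genes tested, 0.03, as a dotted line. The fitted values of genes with no abaxial read are no bounds. Lists run downward from class I KNOX with a median of 6.14 to YABBY with -5.16.

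The contrast with the adaxial side of the same primordia used the same center zone libraries, so the values of both contrasts are given side by side. Against the adaxial side, 1148 genes were higher in the center zone, 6.38% of those tested, and 1009 were lower, 5.61%, together 12%. The difference between both contrasts is the difference of the adaxial against the abaxial side, in which the center zone cancels. It passed the threshold for 13 genes, 0.0723% of those tested, with 9 higher adaxially (0.05%) and 4 lower (0.0222%). At an unadjusted p below 0.05 it was 943 genes, by DESeq2 195 genes. Most genes called against 1 leaf side were therefore not shown to differ between the sides. Only 8 genes were called against the abaxial side and had an adjusted p above 0.5 against the adaxial side, and 11 the reverse. No gene in either set has a symbol.

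Against the adaxial side, class I KNOX genes were again higher, with 6 of 7 called and a median of 4.38, and HD-ZIP IV genes lower, with 4 of 4 called and a median of -3.12. kn1 had 9.9 and 2.4 RPM adaxially, which gave a log2 difference of 7.28 ± 0.81 (edgeR adjusted p = 0.00433). The GRF and GIF list had 10 of 17 lower against the adaxial side, with a median of -1.51. CUC2 and abph1 differed less from the adaxial side, which held 11.5 and 20.1 RPM of CUC2 and 3.4 and 4.7 RPM of abph1. Their log2 differences were 4.14 ± 0.39 and 4.06 ± 0.30 against the adaxial side, where those against the abaxial side were 8.02 and 7.29. The difference between the sides did not pass for either gene (edgeR adjusted p = 0.0328 for CUC2 and 0.0288 for abph1).

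Among lists with at least 3 measured members, KANADI genes had the largest change in median between both contrasts, -4.55 against the abaxial side and 0.24 against the adaxial side. mwp1 had 4.4 and 0.5 RPM in the center zone, 2.2 and 1.5 RPM adaxially and 51.4 and 55.3 RPM abaxially. The center zone and the adaxial side thus held similar low levels, with log2 differences of 0.24 ± 0.87 for mwp1, 0.62 ± 0.76 for kan1 and -1.74 ± 0.99 for kan3. The adaxial against abaxial difference was -4.80 ± 0.93 for mwp1, -4.64 ± 0.81 for kan1 and -5.23 ± 0.89 for kan3, and none passed (edgeR adjusted p of 0.298, 0.126 and 0.125). No YABBY gene passed the test between the sides. YAB11 had 4.1 and 2.1 RPM adaxially against 48.1 and 36.9 RPM abaxially (log2 -3.75 ± 0.35, edgeR adjusted p = 0.0116), and yab9 had 59.6 and 82.0 RPM against 20.2 and 19.5 RPM (log2 1.90 ± 0.34, edgeR adjusted p = 0.141). yab14 was lower in the center zone than on either side, by -5.19 ± 0.26 against the adaxial and -5.69 ± 0.26 against the abaxial side. Among the other large decreases, TCP7, GLK47 and GRMZM2G123972 were also low adaxially, with 2.0 and 0.8, 2.5 and 5.4, and 8.9 and 12.4 RPM. Their differences between the sides, -3.78 ± 0.63, -4.02 ± 0.44 and -4.30 ± 0.52, did not pass (edgeR adjusted p of 0.0949, 0.0312 and 0.0622). By contrast, bHLH23 had 114.1 and 162.7 RPM adaxially and 156.7 and 122.3 RPM abaxially.

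Of the 13 genes called between the sides, 5 stood high on the adaxial side alone, and none of them passed the test between the center zone and the abaxial side. IG1, the LOB-domain gene indeterminate gametophyte1 of adaxial leaf identity (chromosome 3, 169217636 to 169220962), had 7.2 and 3.9 RPM in the center zone, 201.0 and 181.8 RPM adaxially and 9.7 and 10.9 RPM abaxially. Its difference was -1.0 ± 0.28 against the abaxial side (edgeR adjusted p = 0.0336) and -5.27 ± 0.31 against the adaxial side (0.000261), and the sides differed by 4.27 ± 0.30 (0.00625). Its close relative ial1 had 5.0 and 3.0 RPM in the center zone, 59.0 and 63.5 RPM adaxially and 7.4 and 7.0 RPM abaxially, a difference between the sides of 3.14 ± 0.28 (edgeR adjusted p = 0.00969). Without a symbol, GRMZM2G110107, AC189879.3_FG003 and GRMZM5G887276 also had their highest level adaxially. GRMZM2G110107 had 3.3 RPM in both center zone libraries, 89.0 and 116.4 RPM adaxially and 4.2 and 7.7 RPM abaxially. AC189879.3_FG003 had 20.7 and 20.6 RPM, 131.2 and 114.9 RPM and 16.5 and 24.6 RPM in the same 3 tissues, and GRMZM5G887276 had 8.3 and 4.7 RPM, 59.8 and 65.4 RPM and 4.1 and 4.3 RPM.

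TCP30 and GRMZM2G512113 stood in steps over the tissues. TCP30 had 2.9 and 2.7 RPM in the center zone, 77.5 RPM in both adaxial libraries and 12.3 and 10.7 RPM abaxially, so the center zone was lower than both sides, by -2.12 ± 0.20 against the abaxial side (edgeR adjusted p = 0.0011) and -4.93 ± 0.22 against the adaxial side (0.000202). GRMZM2G512113 had 11.3 and 9.4 RPM in the center zone, 318.5 and 230.5 RPM adaxially and 57.1 and 51.6 RPM abaxially. In the contrast with the abaxial side, TCP30 lost its call without abaxial library 1, and GRMZM2G512113 kept it in every omission.

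Abaxial genes that both other tissues held low were GRMZM2G070865 and GRMZM5G845891. The first had 1.3 and 1.0 RPM in the center zone, 1.7 and 1.3 RPM adaxially and 47.4 and 35.0 RPM abaxially (center zone against abaxial -5.27 ± 0.31, edgeR adjusted p = 0.000212). The second had 2.1 and 3.3 RPM in the center zone, 6.6 and 6.1 RPM adaxially and 132.6 and 116.0 RPM abaxially (-5.62 ± 0.29, edgeR adjusted p = 0.000165). The reverse, a gene low on the abaxial side alone, was GRMZM2G089556, with 8.8 and 13.4 RPM in the center zone, 9.9 and 7.9 RPM adaxially and 0.2 RPM in both abaxial libraries. GRMZM2G113235 had 28.0 and 31.9 RPM in the center zone, 12.7 and 9.2 RPM adaxially and 0.7 and 0.9 RPM abaxially. These 4 genes kept their call of the center zone against the abaxial side in every omission of a library.

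ARF11 was the 1 gene called in opposite directions against the sides (chromosome 3, 196568222 to 196574187). It had 39.9 and 60.0 RPM in the center zone, 19.2 and 18.0 RPM adaxially and 131.5 and 133.4 RPM abaxially. The center zone thus lay between the sides, with a log2 difference of -1.51 ± 0.24 against the abaxial side (edgeR adjusted p = 0.00505) and 1.27 ± 0.24 against the adaxial side (0.00858). Its call against the abaxial side was lost without any one leaf library. ARF12 had the same order with 60.4 and 76.7, 40.4 and 20.5, and 215.9 and 171.4 RPM, and ARF23 with 77.3 and 106.7, 34.4 and 35.8, and 118.4 and 133.1 RPM. Their differences between the sides, -2.64 and -1.79, had an edgeR adjusted p of 0.0408 each. Over the 17 auxin response factors the median difference was 1.03 against the adaxial side, with 14 positive, where it was -0.03 against the abaxial side, with 7 positive. GRMZM5G816289 also had its lowest level adaxially, with 93.3 and 96.5 RPM in the center zone, 29.2 and 24.7 RPM adaxially and 187.9 and 150.4 RPM abaxially.

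All 13 calls between the sides were lost when any one of the 4 leaf libraries was left out, at edgeR adjusted p of up to 0.0657 for IG1, 0.0883 for ARF11, 0.0658 for TCP30 and 0.092 for ial1. Their direction stayed the same in every such fit. All 13 were still called without either center zone library.

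**Figure D4:**
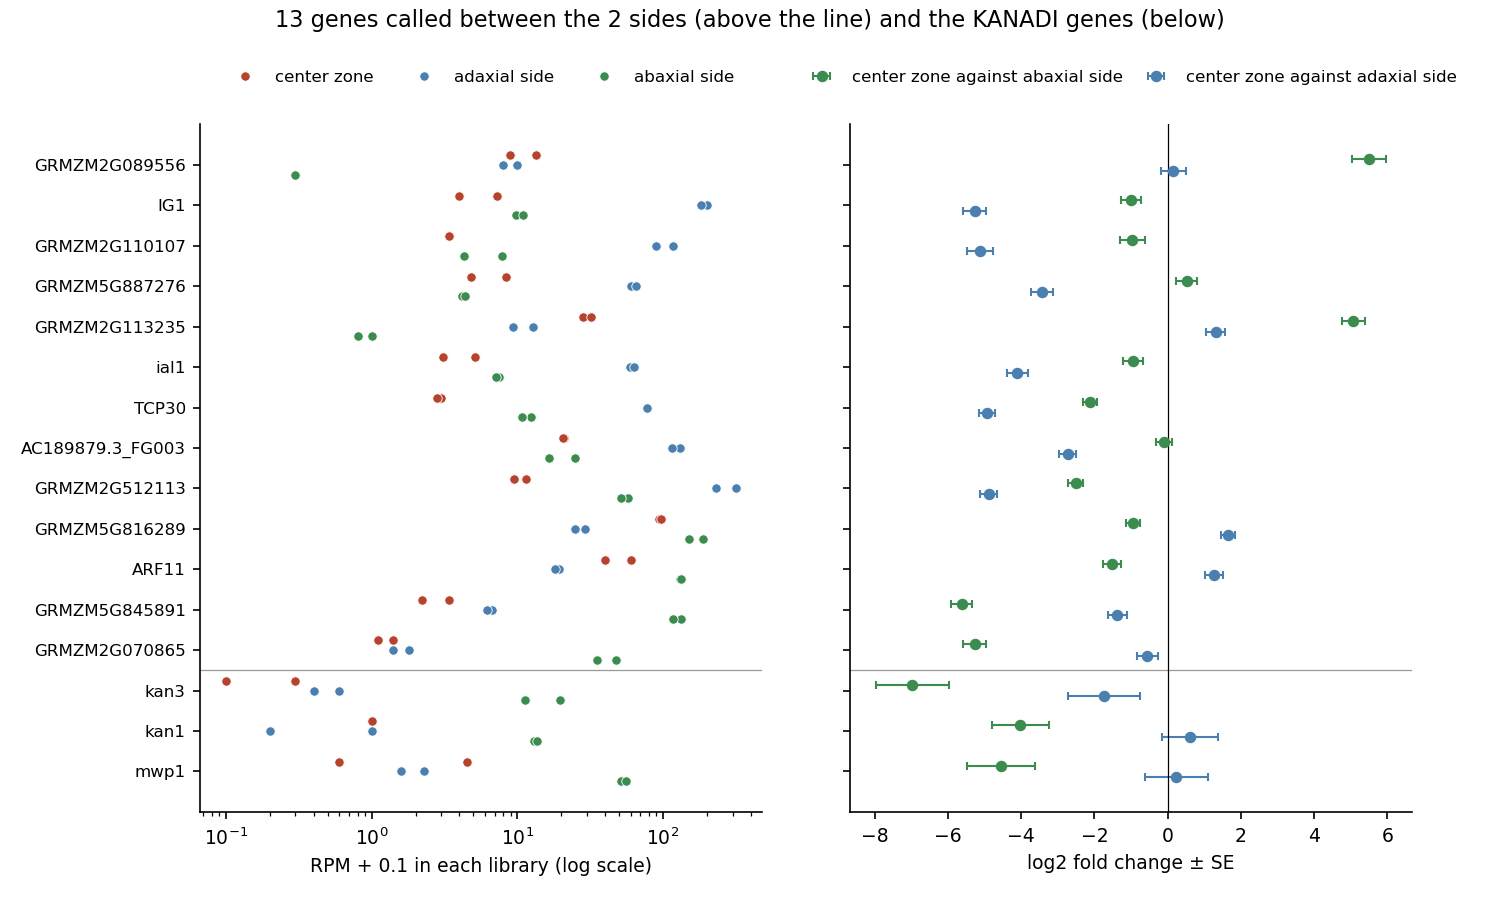
The 13 genes called between the leaf sides, with the KANADI genes kan3, kan1 and mwp1 for comparison. One panel gives the level in each library in RPM (log axis, 0.1 added) and the other the log2 difference of the center zone against the abaxial and against the adaxial side, with the SE as bars. IG1 stands at -1.0 against the abaxial and -5.27 against the adaxial side, and GRMZM2G070865 at -5.27 and -0.55.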

How the data were processed

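Counts and depth-scaled reads (RPM) of 6 laser-microdissection RNA-seq libraries were read from 1 deposited table with 39656 gene IDs. According to the labels and the study's methods, the authors amplified the RNA linearly, prepared single-end TruSeq libraries, aligned quality-trimmed reads with GSNAP (version not given in the sources used here) to B73 RefGen_V3, kept uniquely aligned reads and counted them per gene. The deposited counts are not normalized. The deposited RPM values are the authors' counts scaled to all uniquely aligned reads, rounded to 1 decimal. Amplification can distort levels and amplified reads are not independent molecules, so counting intervals and floors cover counting error only. The counting is not stated to use strand, so reads of overlapping antisense genes cannot be told apart, and near-identical paralogs lose reads that align to several places.

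Members are the 17759 genes with a mean of at least 2 RPM in the center zone or on the abaxial side. The 17993 genes with that mean in any of the 3 groups were fitted with edgeR 4.0.16 (TMM, robust quasi-likelihood F test, 3 groups, no covariate), with Benjamini-Hochberg adjusted p under 0.01 as the threshold, the level the study used with DESeq. Standard errors (SE) were derived from each log2 fold change and its F statistic. The adaxial minus abaxial contrast equals the difference of both center zone contrasts, which share the center zone libraries. The fit was tested on simulated data. Alternatives were library size alone, DESeq2 1.42.0, limma-trend (limma 3.58.1, prior count 2), other filters, an adjusted p under 0.05, the 4 compared libraries alone, a replicate block, thinning to the smallest library and leaving out each library.

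The members and gene lists were chosen with earlier results of these data known. Lists were matched by symbol, and 2590 IDs had a symbol in RefSeq's table of assembly Zm-B73-REFERENCE-NAM-5.0, used for names alone. Genes selected for naming were, in each direction, the 12 largest changes with a symbol and 2 without among called genes whose libraries do not overlap, up to 6 called members of each regulator or hormone list, genes the study names, and every gene called between the leaf sides. The other genes selected are list members or, for zfl1, a LEAFY homolog, and were picked with their values in view. Some selected genes are not described above, and the counts out of 122 named calls include these. Replicate numbers were not taken to pair the samples, since the labels give them no shared source and not every pair of groups deviated together. A single list member is counted with its list and not reported here by name.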

Additional observations from a re-analysis of the deposited data

Results flagged for a closer look

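For 13 genes the change of the center zone against the abaxial side differed from its change against the adaxial side (edgeR adjusted p below 0.01 for the difference, which equals adaxial minus abaxial). On the log2 scale the difference was 5.34 for GRMZM2G089556, 4.27 for IG1, 4.16 for GRMZM2G110107, 3.95 for GRMZM5G887276, 3.76 for GRMZM2G113235, 3.14 for ial1, 2.80 for TCP30, 2.63 for AC189879.3_FG003 and 2.38 for GRMZM2G512113. It was -4.73 for GRMZM2G070865, -4.25 for GRMZM5G845891, -2.78 for ARF11 and -2.60 for GRMZM5G816289. Each of the 13 differences lost its call when any one leaf library was left out and kept its sign.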

How the results depend on the processing

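Of the 1915 calls against the abaxial side (1120 higher, 795 lower in the center zone), no call of a named gene changed direction under any alternative. DESeq2 called 4847 genes (2498 higher, 2349 lower) and 195 between the leaf sides, against 13. An adjusted p below 0.05 gave 5321 genes (2840 higher, 2481 lower) and 44 between the sides. The 4 center zone and abaxial libraries alone gave 1258 genes, 467 of them lower. Without a filter, 49 genes were called between the sides. Leaving out 1 library gave 218 to 3454 calls, 134 to 1567 higher and 84 to 1887 lower, and 0 to 66 between the sides. In every such fit the lone library of a group is assumed to vary like the others. The lowest counts came without an abaxial library. Of the 122 named calls, 36 and 43 then remained. Without center zone library 1, 45.4% of calls were higher, against 58.5% with all libraries. Where 0 genes were called between the sides by edgeR, 1877 (without adaxial library 1), 693 (without adaxial library 2) and 594 (without abaxial library 2) had an unadjusted p below 0.05.

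Deviations of same-numbered replicates correlated at -0.075 between the center zone and the abaxial side, at -0.096 between the center zone and the adaxial side and at 0.207 between the leaf sides, and the labels give the shared number no meaning. With the replicate block, 953 genes were called (576 higher, 377 lower), 920 of them among the 1915, and 0 between the sides (866 at an unadjusted p below 0.05). Of the 122 named calls, 77 then remained. The 45 lost included IPT1, FEA4, PIN1a, rld2, rs2, wox9C and the cyclin genes cycD1, cyc1 and cyclin8. With the 4 center zone and abaxial libraries alone, 98 remained. By library size alone the median log2 difference of all genes was 0.14, against 0.03 with TMM, and 118 of the 122 named calls remained. The abaxial libraries were the shallowest, and thinning all libraries to the smallest kept 121 of the 122. The cause of these changes was not tested.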
